A study of Mus musculus with 8 samples.

Results

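The receptors that share the common gamma chain were followed here, with the kinases and STAT5 factors that carry their signal, in CD4-CD8- cells of the mouse thymus and in CD4-CD8- thymus emigrants of the spleen. The genes were Il7r, Il2ra, Il2rb, Il2rg, Il15ra, Il4ra, Jak1, Jak3, Stat5a and Stat5b, and every probe set that the platform annotation gives to 1 of these symbols alone was taken. That rule found 19 probe sets for 9 of the 10 genes, of 20393 probe sets for 12394 genes in all. Il2rg, the common gamma chain itself, is named only. A further 2 probe sets, annotated to Jak3 together with a neighbouring gene, were not used. For 8 of the 9 genes there was more than 1 probe set, and each gene is described by all of its own. Of the 19, 9 lay above the array median on all 8 arrays, 4 lay below it on all 8, and 6 lay on both sides.

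Cytokines of this family bind a private receptor chain that pairs with the common gamma chain. Interleukin 7 uses the Il7r product, interleukin 2 and interleukin 15 share the Il2rb product beside their own alpha chains from Il2ra and Il15ra, and interleukin 4 uses the Il4ra product. Jak1 binds the Il7r, Il2rb and Il4ra products and Jak3 the gamma chain. At the receptors for interleukin 2, 7 and 15 the kinases phosphorylate STAT5, the product of Stat5a and Stat5b. In the thymus the interleukin 7 receptor keeps early thymocytes alive, and the interleukin 2 receptor alpha chain, CD25, is a standard marker of intermediate CD4-CD8- stages that is lost before the double-positive stage. The Il7r product also forms the receptor for thymic stromal lymphopoietin together with the Crlf2 product.

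RNA levels were measured on 8 Affymetrix arrays, 2 for each of 4 groups. These were emigrants after TCDD, emigrants after oil, thymocytes after TCDD and thymocytes after oil. TCDD (2,3,7,8-tetrachlorodibenzo-p-dioxin) is a dioxin that activates the aryl hydrocarbon receptor. Female C57BL/6 mice of 6 to 8 weeks received TCDD at 10 µg/kg in corn oil, or the oil without it, into the peritoneum, and no label names any allele beyond the strain. All mice, controls included, had FITC injected into the thymus 5 days later, and 24 h after that CD4-CD8- cells, FITC-positive according to the design text, were sorted from thymus or spleen into TRIzol. Whether each array stands for its own mouse, a pool or a repeat is not labelled. The p-values therefore reflect the scatter of these arrays alone, which may be technical. No gate against other lineages is named for either sort.

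Some labels contradict each other, and groups follow the sample titles throughout. The Treatment field of the first emigrant array titled corn oil names TCDD, and that of the second emigrant oil array reads Dioxane 2. For 2 emigrant arrays, TCDD 1 and oil 2, thymus is entered as the tissue. The text accompanying the TCDD thymocyte arrays speaks of corn oil only. The Treatment field also gives TCDD as 10 nM, where the protocol gives the dose by body weight. Cyp1b1, a standard target of the aryl hydrocarbon receptor, read 6.87 and 8.36 in TCDD emigrants against 4.69 and 6.25 in oil emigrants, and 8.46 and 9.59 in TCDD thymocytes against 4.62 and 5.04 in oil thymocytes. The array with the conflicting Treatment field held 4.69, the lowest of the emigrant arrays. All levels are log2 RMA values as deposited, and a difference of 1 is a 2-fold difference.

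The sorted populations carried T lineage transcripts in both organs. The mean of 9 T lineage markers, Ptcra among them, lay between 7.05 and 7.89 in emigrants and between 8.18 and 8.35 in thymocytes. A mean without Ptcra was taken after the values were seen. For the other 8 it lay between 7.29 and 8.20 in emigrants and between 8.08 and 8.22 in thymocytes, and the sources overlapped. Of these 8, Thy1, Lat and Cd3g were each lower in every emigrant array than in every thymocyte array. Ptcra, the pre-T-cell receptor alpha chain, read 5.25 and 5.08 in TCDD emigrants and 5.35 and 7.00 in oil emigrants, against 8.95 and 9.45 in TCDD thymocytes and 8.83 and 9.20 in oil thymocytes. The mean of 9 NK markers ranged over 6.14 to 7.56 in emigrants and 6.14 to 6.75 in thymocytes, and that of 7 B cell markers over 4.50 to 4.72 in emigrants and 5.04 to 5.65 in thymocytes. Granulocyte marker means spread from 5.54 to 8.35 in emigrants and from 6.17 to 7.65 in thymocytes. Myeloid and antigen presenting means were 6.25 to 7.50 and 6.67 to 7.16, and erythroid means 5.08 to 6.48 and 4.98 to 5.20. Of 10 myeloid and antigen presenting genes, Csf1r was higher in emigrants without overlap, by 1.18. Cd74, H2-Aa and H2-Ab1 were lower, at -0.85, -1.71 and -1.80. Of 7 erythroid genes, Car2 alone did not overlap, higher by 3.03. Over all probe sets, 11.9% did not overlap. Among the B cell markers, Cd79a, Pax5 and Ebf1 lay below the array median on all arrays. Ms4a1 read 4.57 to 5.36 in emigrants and 6.96 to 8.93 in thymocytes, and Cd79b 4.89 to 5.69 and 6.14 to 7.55. These 2 of the 7 were lower in emigrants without overlap and 0 were higher, against 11.9% of all probe sets in either direction. In such bulk samples, fewer cells of a type and less RNA per cell cannot be told apart.

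The first comparison asked how the receptor genes differ between emigrants and thymocytes. Averaged over both treatments, Il7r was higher and Il2ra lower in emigrants, on both probe sets of each gene and with no overlap between the 4 emigrant and 4 thymocyte arrays. Il2rb, Il15ra and Il4ra were higher in emigrants on their brightest probe sets, by at most 0.41 on the log2 scale. None of the 19 probe sets passed limma's test at an adjusted p of 0.05, which 0.0785% of all probe sets did, and the lowest adjusted p among them was 0.0603. At an unadjusted p under 0.05, 8 of the 19 were called, against 14.4% of all probe sets. Both probe sets of Il7r and both of Il2ra are among the 8, so these are not all separate genes. Of the 19, 5 were higher in emigrants, against 6.73% of all, and 3 were lower, against 7.64% of all. Of the 19, 7 did not overlap between the sources, against 11.9% of all. The median difference was 0.08 over the 19 and 0.02 over all probe sets, and the median size regardless of sign was 0.30 against 0.16.

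A stretch of promoter is shown for each of 2 genes because Il7r and Il2ra had the largest differences between the sources, in opposite directions. Each runs from 250 bases before to 50 bases after the gene's start in the RefSeq table of GRCm38.p6, printed 5′ to 3′ on the gene's strand. Il7r lies at chr15:9529827-9530126 on the minus strand and Il2ra at chr2:11642542-11642841 on the plus strand.
Il7r: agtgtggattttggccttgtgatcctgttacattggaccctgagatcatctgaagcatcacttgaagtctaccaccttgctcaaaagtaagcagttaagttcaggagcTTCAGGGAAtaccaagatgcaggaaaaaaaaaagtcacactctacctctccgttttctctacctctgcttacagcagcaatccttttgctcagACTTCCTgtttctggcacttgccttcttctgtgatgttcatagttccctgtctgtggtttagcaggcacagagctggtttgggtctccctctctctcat
Il2ra: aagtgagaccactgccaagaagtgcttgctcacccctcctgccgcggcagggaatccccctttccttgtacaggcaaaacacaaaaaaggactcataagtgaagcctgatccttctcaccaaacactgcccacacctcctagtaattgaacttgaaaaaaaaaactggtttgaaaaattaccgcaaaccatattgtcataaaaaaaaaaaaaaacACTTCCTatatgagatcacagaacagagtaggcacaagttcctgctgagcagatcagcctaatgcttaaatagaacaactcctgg
Capitals mark matches to a STAT5-type motif, TTCNNNGAA, or to an ETS-type motif, AGGAAGT, read on either strand. The Il7r window held 1 of each, and the Il2ra window held the ETS-type motif only. Over 32851 RefSeq promoter windows of the same length, 8.3% held TTCNNNGAA and 9.35% held AGGAAGT. The core bound by the aryl hydrocarbon receptor, GCGTG, is in 32.4% of windows and in neither of these 2. Windows of Il2rg, Il4ra, Jak1 and Stat5b held it, among 12 windows for 9 of the 10 genes. These motifs were chosen after the sequences had been seen, and a match describes letters, not binding.

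Il7r, the private chain of the interleukin 7 receptor, was measured by 2 probe sets. On 1448576_at the level was 6.99 and 6.14 in TCDD emigrants, 8.20 and 7.25 in oil emigrants, 5.08 and 5.23 in TCDD thymocytes, and 4.97 and 5.20 in oil thymocytes. All emigrant arrays lay above all thymocyte arrays, and the thymocyte arrays lay close together. The emigrant mean exceeded the thymocyte mean by 2.02 ± 0.27 (limma standard error, 4 arrays each, 95% interval 1.36 to 2.68), or 4.06-fold, with an unadjusted p of 0.000253 and limma's adjusted p of 0.0603. Leaving out each array in turn gave differences from 1.79 to 2.26. The difference was 1.41 under TCDD (95% interval 0.47 to 2.34) and 2.64 under oil (1.70 to 3.57), with adjusted p of 0.463 and 0.196 by limma.

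The second Il7r probe set, 1448575_at, read 9.67 and 11.13 in TCDD emigrants, 10.56 and 11.27 in oil emigrants, 9.41 and 9.05 in TCDD thymocytes, and 9.04 and 8.49 in oil thymocytes. The emigrant arrays again lay above the thymocyte arrays, but the lowest emigrant array, TCDD 1, lay just above the highest thymocyte array, TCDD 1. The difference averaged over treatments was 1.66 ± 0.36 (limma standard error, 95% interval 0.79 to 2.53), or 3.15-fold, with adjusted p of 0.119 by limma. Under TCDD it was 1.17 and under oil 2.15, and without the second TCDD emigrant array the TCDD value was 0.44. The 2 probe sets ordered the emigrant arrays differently: TCDD 2 was the second highest array on 1448575_at and the lowest emigrant array on 1448576_at. Over the 8 arrays their Pearson correlation was 0.711 and Spearman's rho 0.762, a description over arrays that fall into 2 sources.

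Il2ra, the alpha chain of the interleukin 2 receptor, ran the other way. Its brighter probe set, 1420692_at, read 5.11 and 6.12 in TCDD emigrants, 4.77 and 5.78 in oil emigrants, 8.47 and 7.88 in TCDD thymocytes, and 8.11 and 6.88 in oil thymocytes. Every emigrant array lay below every thymocyte array, and the 2 arrays of a group lay farthest apart, by 1.23, in oil thymocytes. The emigrant mean was lower by 2.39 ± 0.40 on the log2 scale (difference -2.39, 95% interval -3.37 to -1.41), or 5.24-fold, with an unadjusted p of 0.000868 and limma's adjusted p of 0.0752. Leaving out each array in turn gave -2.70 to -2.08. The difference was -2.56 under TCDD and -2.22 under oil. The dimmer probe set, 1420691_at, below the array median on all arrays, read 3.99 to 4.19 in emigrants and 4.37 to 4.57 in thymocytes, a difference of -0.36 with adjusted p of 0.208 by limma.

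The direction between the sources was therefore opposite for the 2 receptors. Il7r on 1448576_at averaged 6.56 in TCDD emigrants, 7.72 in oil emigrants, 5.16 in TCDD thymocytes and 5.09 in oil thymocytes. Oil emigrants were thus highest and TCDD emigrants next, and the thymocyte groups overlapped. Il2ra on 1420692_at averaged 5.62 in TCDD emigrants, 5.27 in oil emigrants, 8.17 in TCDD thymocytes and 7.50 in oil thymocytes, with overlapping arrays between treatments in each source. Ptcra, another gene of early thymocytes, was on the same side as Il2ra, with a difference of -3.44 and adjusted p of 0.0524 by limma. The mean of the other 8 T lineage markers overlapped between the sources, though not every single gene did. Of the 9 T lineage markers, 4 were lower in emigrants without overlap (Ptcra, Thy1, Lat and Cd3g) and 0 were higher. Over all probe sets, 11.9% did not overlap in either direction.

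**Figure D1:**
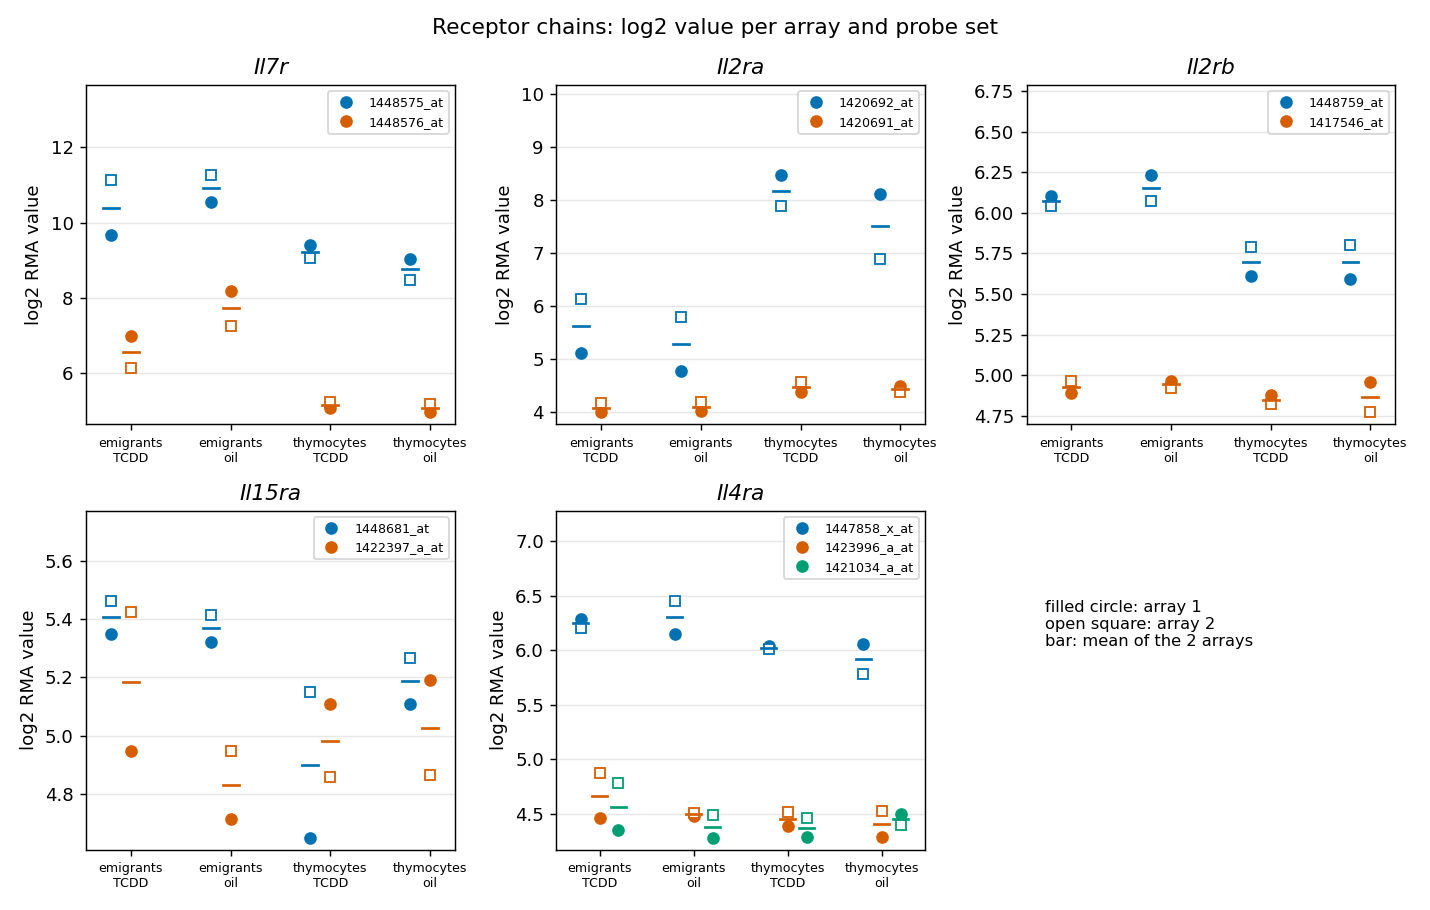
Log2 RMA value of each receptor gene (vertical axis) in the 4 groups (horizontal axis), 1 colour per probe set, with array 1 as a filled circle, array 2 as an open square and the mean of both as a bar. Il7r lies higher in emigrants and Il2ra lower on both of their probe sets, and the other 3 receptors span less than 1 log2 unit per probe set.

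Il2rb, the beta chain shared by the interleukin 2 and interleukin 15 receptors and abundant on NK cells, was slightly higher in emigrants. Probe set 1448759_at read 6.11 and 6.04 in TCDD emigrants, 6.23 and 6.08 in oil emigrants, 5.61 and 5.79 in TCDD thymocytes, and 5.59 and 5.80 in oil thymocytes. The sources did not overlap, and the difference was 0.41 ± 0.11 (limma standard error, 95% interval 0.16 to 0.67), with an adjusted p of 0.155 by limma. On 1417546_at the arrays lay between 4.77 and 4.97 and the sources overlapped (difference 0.08). Of 9 NK markers, 1 did not overlap between the sources, where 11.9% of all probe sets did not. This was Tbx21, the gene of the T-bet factor, named after its values were seen, at 6.46 and 5.81 in TCDD emigrants, 7.01 and 6.36 in oil emigrants, 4.57 and 5.09 in TCDD thymocytes, and 4.63 and 4.80 in oil thymocytes. The other NK markers overlapped, with differences from -1.23 for Gzma to 1.68 for Klrd1. Eomes, Nkg7 and Klra8 differed by 1.64, 1.32 and 0.39, and Prf1, Klrk1 and Ncr1 by -0.02, 0.04 and 0.08. Whether NK transcripts contribute to the Il2rb difference was not tested.

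Il15ra, the alpha chain for interleukin 15, read 5.35 and 5.46 in TCDD emigrants, 5.32 and 5.42 in oil emigrants, 4.65 and 5.15 in TCDD thymocytes, and 5.11 and 5.27 in oil thymocytes on 1448681_at. The difference was 0.34 (95% interval 0.01 to 0.68, adjusted p 0.334 by limma), with 0.22 when the first TCDD thymocyte array was left out. Its other probe set, 1422397_a_at, gave a difference of 0.00. Il4ra, the alpha chain for interleukin 4, read 6.29 and 6.21 in TCDD emigrants, 6.15 and 6.45 in oil emigrants, 6.04 and 6.01 in TCDD thymocytes, and 6.06 and 5.78 in oil thymocytes on 1447858_x_at. That difference was 0.30 (95% interval 0.02 to 0.59, adjusted p 0.322 by limma), and the other Il4ra probe sets, at 4.28 to 4.88, overlapped between the sources with differences of 0.15 and 0.06. For both genes, then, the non-overlapping reading came from 1 probe set.

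Jak1 encodes the kinase on the Il7r, Il2rb and Il4ra products. It varied between the 2 arrays of each emigrant group by 0.85 to 1.94, and in thymocytes by at most 0.22. On 1433803_at it read 8.12 and 6.90 in TCDD emigrants, 8.13 and 7.28 in oil emigrants, 7.83 and 7.89 in TCDD thymocytes, and 7.48 and 7.39 in oil thymocytes. On 1433805_at it read 8.06 and 6.73 in TCDD emigrants, 8.44 and 7.15 in oil emigrants, 7.08 and 6.86 in TCDD thymocytes, and 7.29 and 7.29 in oil thymocytes. On all 3 Jak1 probe sets the emigrant arrays numbered 1 lay above those numbered 2, most on 1433804_at with 5.40 and 5.46 against 3.70 and 3.52, where the thymocyte arrays held 3.59 to 3.67. The emigrant arrays numbered 1 also read 7.81 and 7.07 on a probe set for the 5′ part of 18S ribosomal RNA, where the other emigrant arrays read 4.20 and 4.01 and thymocyte arrays 3.95 to 4.29. The part of such array differences in the Jak1 values was not tested. Differences between the sources were -0.04, 0.47 and 0.90 on 1433803_at, 1433805_at and 1433804_at, each with a 95% interval that spans 0.

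The arrays also separated by number at other members. In emigrants 14 of the 19 probe sets separated the arrays numbered 1 from those numbered 2, against 48.2% of all probe sets, and in thymocytes 10 of 19 did, against 63.3%. Il2ra on 1420692_at was lower on arrays numbered 1 by a mean of 1.01 in emigrants (number 1 minus number 2, -1.01) and higher on them by 0.91 in thymocytes. Il2rb on 1448759_at ran the other way, at 0.11 in emigrants and -0.19 in thymocytes. The 3′ minus 5′ signal of actin, a measure of RNA and amplification quality, was higher on the array numbered 1 in each group, at 4.68 against 3.79 in TCDD emigrants, 3.92 against 3.34 in oil emigrants, 4.31 against 3.06 in TCDD thymocytes and 4.12 against 3.12 in oil thymocytes. The same signal of Gapdh was lower on the emigrant arrays numbered 1, at 4.97 against 5.32 under TCDD and 4.81 against 4.91 under oil. In thymocytes it was higher on them, at 5.90 against 4.78 under TCDD and 6.23 against 4.97 under oil. The part of these signals in the members' values was not tested.

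Jak3, the kinase on the gamma chain, read 5.58 and 6.42 in TCDD emigrants, 5.60 and 5.68 in oil emigrants, 6.10 and 5.66 in TCDD thymocytes, and 6.24 and 5.65 in oil thymocytes. The sources overlapped, with a difference of -0.09 (95% interval -0.67 to 0.48). Stat5a lay between 4.73 and 5.18 on 1421469_a_at and between 3.43 and 3.72 on 1450259_a_at, with differences of -0.16 and 0.01. For these 2 genes no difference between the sources was detectable beyond the spread of the arrays.

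Stat5b gave opposite readings on its 2 probe sets. On 1422103_a_at it read 6.48 and 6.32 in TCDD emigrants, 6.64 and 6.00 in oil emigrants, 7.09 and 6.62 in TCDD thymocytes, and 6.85 and 7.25 in oil thymocytes. The difference was -0.59 ± 0.20 (limma standard error, 95% interval -1.08 to -0.11, adjusted p 0.256 by limma), although 1 emigrant array, oil 1, lay just above the lowest thymocyte array. On 1422102_a_at it read 5.62 and 5.65 in TCDD emigrants, 5.62 and 5.37 in oil emigrants, 5.46 and 5.55 in TCDD thymocytes, and 4.97 and 5.29 in oil thymocytes, a difference of 0.25 (95% interval -0.04 to 0.53). The Pearson correlation of the 2 probe sets over 8 arrays was -0.357, so a direction for Stat5b cannot be given.

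**Figure D2:**
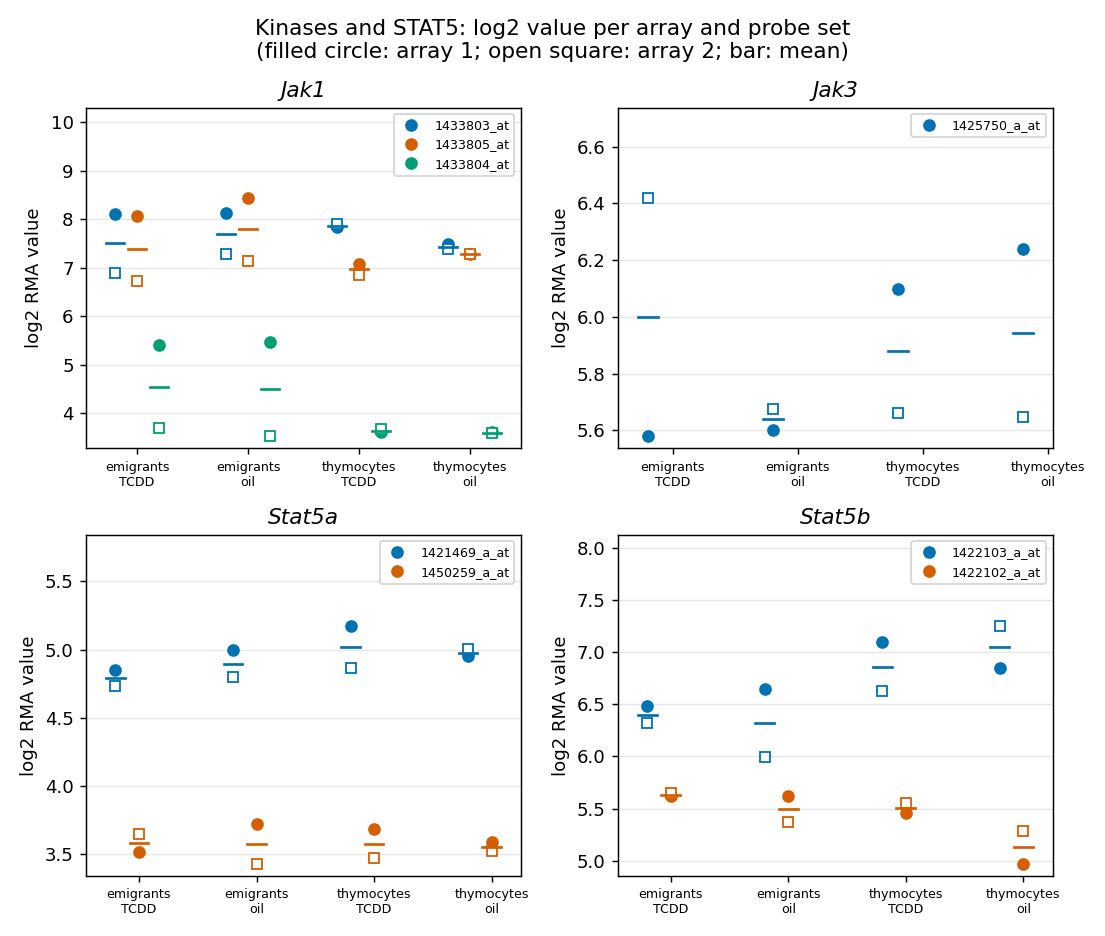
Log2 RMA value of each kinase and STAT5 gene (vertical axis) in the 4 groups (horizontal axis), 1 colour per probe set, with array 1 as a filled circle, array 2 as an open square and the mean of both as a bar. The Jak1 emigrant arrays numbered 1 lie above those numbered 2 on all 3 probe sets, and the 2 Stat5b probe sets differ in opposite directions between the sources.

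Within one treatment the calls were fewer. Under TCDD, 5 of the 19 probe sets had an unadjusted p under 0.05 between emigrants and thymocytes, against 7.54% of all, and under oil 5 did, against 9.06%. Il7r on 1448576_at, Il2ra on 1420692_at and Il2rb on 1448759_at were called under both treatments. With 2 arrays a group, 12 of the 19 did not overlap between the sources under TCDD, against 35.8% of all, and 9 did not overlap under oil, against 38.9%. None passed an adjusted p of 0.05 by limma under either treatment, and 0 of all 20393 probe sets did.

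**Figure D3:**
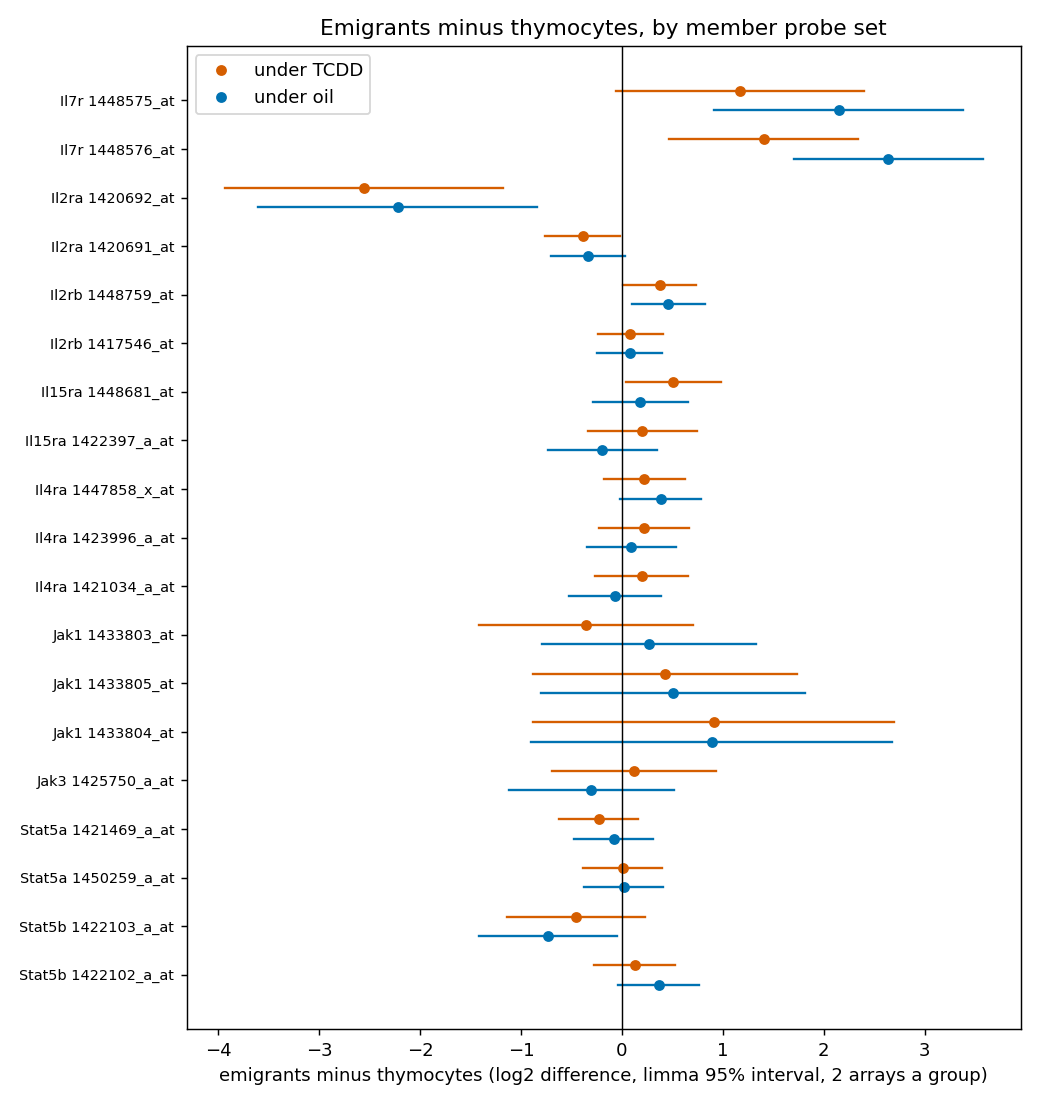
Emigrants minus thymocytes in log2 units (horizontal axis) for each of the 19 probe sets (vertical axis), under TCDD and under oil, with limma's 95% interval as a line. Il7r lies to the right of 0 and Il2ra to the left under both treatments, at 2.64 for Il7r on 1448576_at and -2.22 for Il2ra on 1420692_at under oil.

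The second comparison asked what TCDD did to these genes in each population. No member passed limma's adjusted threshold in emigrants or thymocytes, nor did any of the 20393 probe sets. In emigrants 1 of the 19 had an unadjusted p under 0.05, against 1.2% of all, and in thymocytes 0 did, against 1.39%. Of the 19, 2 did not overlap between TCDD and oil in emigrants, against 24.5% of all, and 4 did not overlap in thymocytes, against 20.7%.

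The one probe set called in emigrants was Il7r on 1448576_at, at 6.99 and 6.14 in TCDD emigrants against 8.20 and 7.25 in oil emigrants. Both TCDD arrays lay below both oil arrays. The difference was -1.16 ± 0.39 (limma standard error, 95% interval -2.10 to -0.22), with an unadjusted p of 0.0226 and limma's adjusted p of 1.00. It was -0.69 without the first oil emigrant array and -1.63 without the second. That first oil array is the one whose Treatment field names TCDD, and with the field in place of the title the difference was -0.14. In thymocytes the same probe set differed by 0.07 between TCDD and oil, and the difference between the 2 effects was -1.23 (95% interval -2.56 to 0.09), with an unadjusted p of 0.0632 and limma's adjusted p of 1.00.

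The other Il7r probe set, 1448575_at, gave -0.51 in emigrants (95% interval -1.74 to 0.72), from 9.67 and 11.13 in TCDD arrays against 10.56 and 11.27 in oil arrays, which overlap. Its sign depended on 1 array: without TCDD 1 the difference was 0.22 and without TCDD 2 it was -1.24. In thymocytes it was 0.47, with 9.41 and 9.05 under TCDD against 9.04 and 8.49 under oil, and these arrays did not overlap. Beside these values, the mean of the T lineage markers was 7.05 to 7.64 in TCDD emigrants and 7.70 to 7.89 in oil emigrants. Without Ptcra it was 7.93 and 7.29 in TCDD emigrants against 8.20 and 7.79 in oil emigrants, which overlap. The mean of the NK markers was 6.14 to 7.12 in TCDD emigrants and 7.01 to 7.56 in oil emigrants. Their part in the Il7r difference was not tested. Over all members, the difference between the TCDD effects in the 2 sources had an unadjusted p under 0.05 for 0 of the 19 probe sets, against 1.27% of all. TCDD and oil arrays that lay apart in both sources and in opposite directions were found for 0 of the 19, against 2.58% of all.

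Il2ra on 1420692_at was higher under TCDD by 0.34 in emigrants and by 0.67 in thymocytes, with 95% intervals of -1.04 to 1.72 and -0.71 to 2.05. The emigrant value was -0.45 when arrays were grouped by the Treatment field. The thymocyte value was 0.06 without the second oil array and 1.29 without the first. Stat5b on 1422102_a_at was the only probe set of the 19 whose TCDD arrays lay above the oil arrays in both sources, by 0.14 in emigrants and by 0.38 in thymocytes (unadjusted p 0.43 and 0.0616 by limma). Its partner 1422103_a_at gave 0.08 in emigrants and -0.19 in thymocytes. In thymocytes Jak1 gave 0.43 on 1433803_at and -0.32 on 1433805_at, each without overlap and in opposite directions. The remaining genes, Il2rb, Il15ra, Il4ra, Jak3 and Stat5a, differed between TCDD and oil by -0.11 to 0.36 in emigrants and by -0.29 to 0.10 in thymocytes, and their arrays overlapped in each case.

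**Figure D4:**
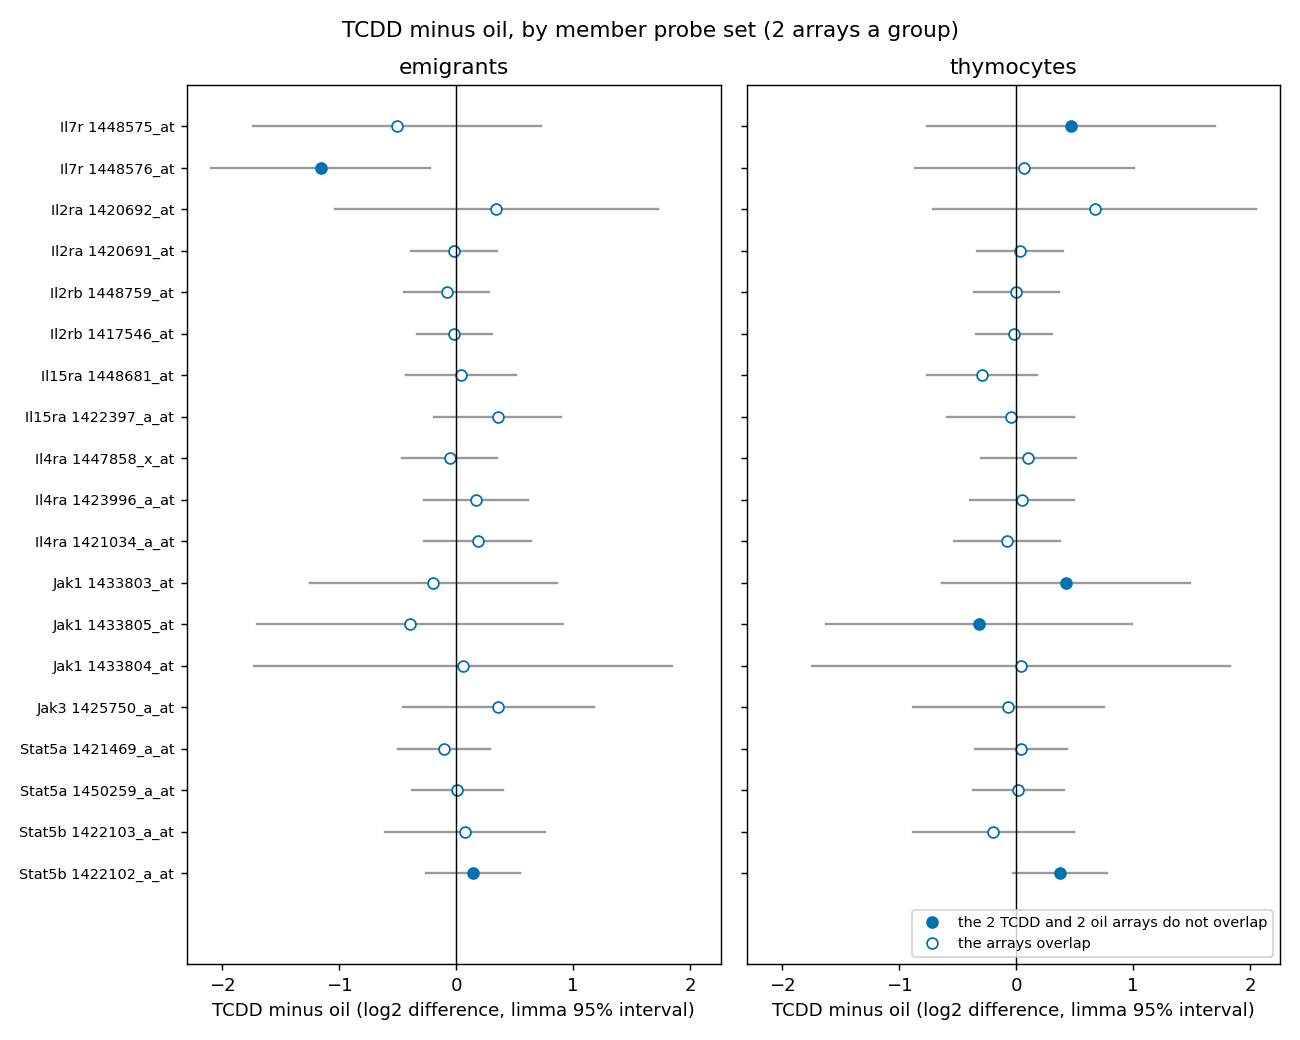
TCDD minus oil in log2 units (horizontal axis) for each of the 19 probe sets (vertical axis) in emigrants and in thymocytes, with limma's 95% interval as a line and a filled point where the 2 TCDD and 2 oil arrays do not overlap. Il7r on 1448576_at in emigrants, at -1.16, has the only interval of either panel that leaves out 0.

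The other genes of the pathway were taken from 7 lists of 60 genes, of which 55 had a probe set, each read by the probe set with the highest mean. None passed limma's adjusted threshold in any comparison. Between the sources, averaged over treatments, 9 had an unadjusted p under 0.05 and were higher in emigrants, against 6.73% of all probe sets, and 3 were lower, against 7.64%. Under TCDD against oil, 1 was higher and 1 lower in emigrants, against 1.2% of all in either direction, and 1 was higher and 1 lower in thymocytes, against 1.39%.

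Among the ligands, none of 7 had an unadjusted p under 0.05 between the sources. Il15, the interleukin 15 gene, differed by 0.31 and Il7, the interleukin 7 gene, by 0.17. Among 4 further receptor chains, Crlf2 was the one called. It read 7.58 and 7.63 in TCDD emigrants and 7.41 and 7.46 in oil emigrants, against 6.25 and 7.05 in TCDD thymocytes and 5.80 and 6.58 in oil thymocytes. Every emigrant array lay above every thymocyte array, and the difference was 1.10 ± 0.24 (limma standard error), with adjusted p of 0.119 by limma. Crlf2 thus stood on the same side as Il7r, its partner chain.

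Of the 6 other JAK and STAT genes measured, 3 were higher in emigrants at an unadjusted p under 0.05, against 6.73% of all probe sets. Tyk2, a kinase of interferon and interleukin 12 receptors, read 6.78 and 7.16 in TCDD emigrants and 6.84 and 6.93 in oil emigrants, against 6.14 and 6.21 in TCDD thymocytes and 6.25 and 6.35 in oil thymocytes. Its difference was 0.69, with adjusted p of 0.0758 by limma. Stat4, the factor downstream of interleukin 12, differed by 0.66 between the sources (adjusted p 0.131 by limma) and overlapped between them. That average joins a difference of 0.05 under TCDD (unadjusted p 0.82) with 1.26 under oil (unadjusted p 0.000863, adjusted p 0.197 by limma). None of the 11 inhibitors measured was called, and Cish, a STAT5-induced inhibitor, differed by 0.39 with overlapping arrays.

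Of 11 STAT5 and gamma chain target genes, 3 were higher and 2 lower in emigrants at an unadjusted p under 0.05. Over all probe sets, 6.73% were higher and 7.64% lower. The higher genes were Pim2, Bcl2 (0.69, adjusted p 0.277 by limma) and Lta (0.37, adjusted p 0.2375 by limma). The lower genes were Ccnd3 and Myc (-0.96, adjusted p 0.157 by limma). Pim2, a survival kinase, read 6.83 and 6.67 in TCDD emigrants and 6.62 and 6.30 in oil emigrants, against 4.93 and 5.56 in TCDD thymocytes and 4.73 and 5.80 in oil thymocytes. The difference was 1.35 ± 0.27 (limma standard error, adjusted p 0.105 by limma) with no overlap. Ccnd3, cyclin D3, read 7.30 and 7.38 in TCDD emigrants and 7.05 and 6.89 in oil emigrants, against 7.51 and 7.47 in TCDD thymocytes and 8.44 and 7.95 in oil thymocytes, a difference of -0.69 (adjusted p 0.101 by limma). In thymocytes Ccnd3 was lower under TCDD by -0.71 (unadjusted p 0.00874, adjusted p 1.00 by limma), and it was -0.46 without the first oil array. Myc, a growth regulator, differed by -0.71 there with an unadjusted p of 0.0854.

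In the PI3K arm of these receptors, Foxo1, a transcription factor that activates Il7r and is held inactive by Akt, read 8.45 and 7.56 in TCDD emigrants and 8.58 and 7.32 in oil emigrants, against 6.63 and 7.65 in TCDD thymocytes and 5.83 and 6.79 in oil thymocytes. The difference was 1.25 (adjusted p 0.257 by limma), and TCDD thymocyte array 2 lay within the emigrant range. Among the regulators of Il7r, Gfi1, a repressor of Il7r, read 7.09 and 5.34 in TCDD emigrants and 7.04 and 6.72 in oil emigrants, against 7.57 and 7.50 in TCDD thymocytes and 7.88 and 7.89 in oil thymocytes. It was lower in every emigrant array, with a difference of -1.16 (adjusted p 0.23 by limma) and of -0.72 without the second TCDD emigrant array. Runx1 differed by 0.46 (adjusted p 0.272 by limma). Under TCDD, Spi1, the gene of the PU.1 factor, was higher in emigrants by 0.53 (unadjusted p 0.0378, adjusted p 1.00 by limma). It read 4.89 and 5.10 in TCDD emigrants, near the array medians of 4.88 and 4.91. In oil emigrants it read 4.55 and 4.39, below the medians of 4.89 and 4.85. The blood cell markers varied between the same arrays. Platelet marker means were 5.81 and 5.98 in TCDD emigrants against 5.46 and 5.37 in oil emigrants. Of 6 platelet genes, 5 were higher and did not overlap, against 24.5% of all probe sets in either direction. Pf4 differed most, at 8.10 and 10.00 in TCDD emigrants against 6.27 and 7.85 in oil emigrants. The others lay closer, with Gp1bb at 5.66 and 5.95 against 5.46 and 5.43. Itga2b read 5.65 and 5.67 against 5.61 and 5.53, and Gp9 5.02 and 5.29 against 4.97 and 4.96. Gp5 lay below the array median on all arrays, and Ppbp overlapped, at 5.74 and 4.25 against 5.94 and 4.12. Myeloid and antigen presenting marker means were 6.81 and 7.50 in TCDD emigrants against 6.25 and 7.29 in oil emigrants. Granulocyte means were 8.35 and 5.54 in TCDD emigrants against 6.17 and 5.88 in oil emigrants. Both means overlapped. In each of these lists 3 of 10 genes were higher without overlap and 0 lower, near the 24.5% of all probe sets in either direction. The part of these cells in the Spi1 difference was not tested.

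**Figure D5:**
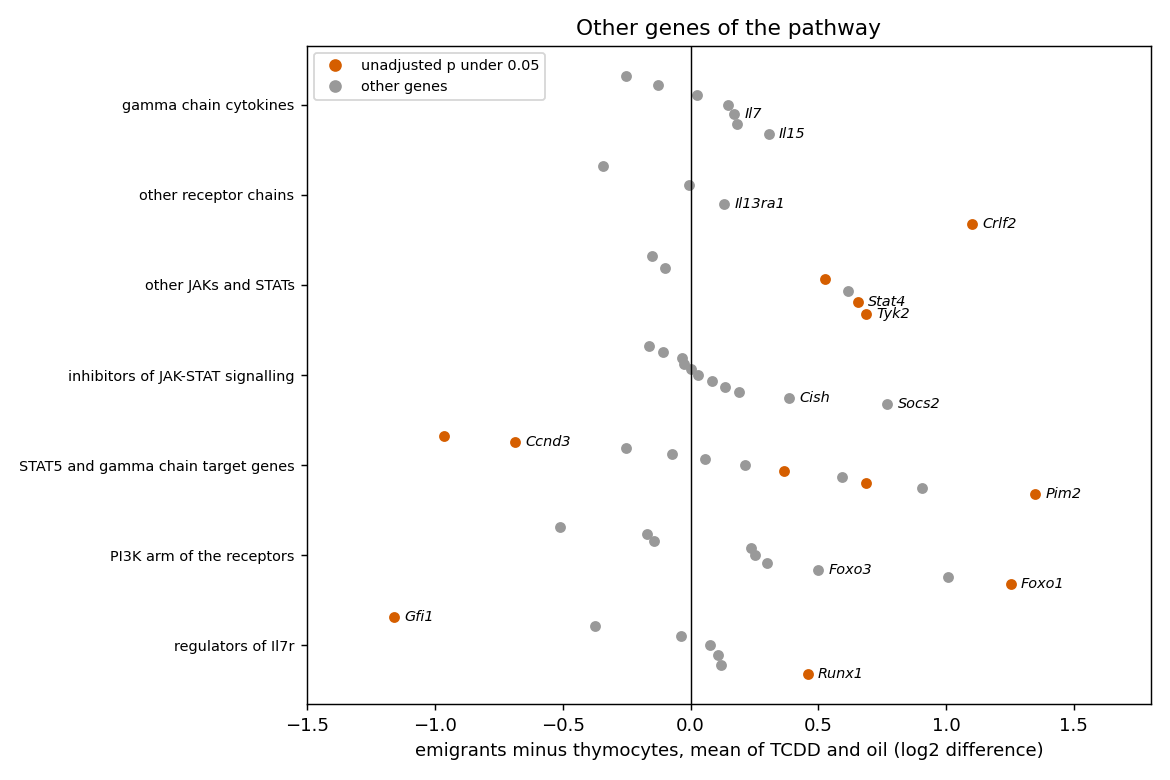
Emigrants minus thymocytes, averaged over TCDD and oil, in log2 units (horizontal axis) for 55 further genes in 7 lists (vertical axis), 1 point per gene, coloured where limma's unadjusted p is under 0.05, with names for the 2 genes of lowest p in each list. Pim2 at 1.35, Foxo1 at 1.25 and Crlf2 at 1.10 lie farthest to the right, and Gfi1 at -1.16 farthest to the left.

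The genes whose levels followed each receptor most closely were sought among 3871 genes whose range over the 8 arrays was at least 1 log2 unit, by Pearson's r on the receptor's brightest probe set. The arrays fall into 2 sources and share array numbers, so these values describe likeness only. For Il7r they were Sytl2 (r 0.969), Ier2 (0.967), Trip11 (0.966), Aff4 (0.966) and Selenop (0.959). Il2ra was followed by Spib (0.965), an ETS factor, Mta3 (0.956), Dnmt3b (0.954), a DNA methyltransferase, Timm10 (0.954) and Dtnbp1 (0.944). Nearest to Il2rb were Lasp1 (0.982), Cd7 (0.98), Tuba1a (0.978), Lactb (0.978) and Bcl2l11 (0.978), the last encoding the cell death factor Bim. Spib read 4.46 and 5.32 in TCDD emigrants and 4.78 and 5.03 in oil emigrants, against 6.36 and 6.08 in TCDD thymocytes and 6.04 and 5.88 in oil thymocytes, with the sources apart as for Il2ra.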

How the data were processed

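The series matrix of the authors' log2 expression values for 22690 probe sets on 8 arrays was used as deposited; the normalisation is RMA per the submitters' processing notes, and no version, background setting or scan record is given in the sources used here. RMA brings arrays to 1 distribution, so a change shared by most genes would not be seen. Of the probe sets, 20393 have 1 gene symbol in GEO's platform annotation, 691 have several and 1606 none, and 20364 symbols were brought up to date through their identifiers. No intensity filter was set. The precision is limited by 2 arrays a group.

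Group means were fitted to all 8 arrays by limma 3.58.1 under R 4.3.3, using lmFit and then eBayes (4 residual degrees of freedom, two-sided), and p-values were adjusted by Benjamini-Hochberg over the 20393 probe sets, with a threshold of 0.05. The comparisons were emigrants against thymocytes (averaged, under TCDD and under oil), TCDD against oil in each source, and the difference between these 2 effects. The fit was tested on simulated data. Named genes were every probe set of the members, up to 2 genes per pathway list and comparison with the smallest p, and the 5 genes most like Il7r, Il2ra and Il2rb. Bcl2, Lta and the source difference of Myc were added after the values were seen. Members, lists and tests were chosen with earlier results of these data known. Alternatives were another normalisation, centring, dim probe sets left out, 1 probe set per gene, other eBayes settings, the replicate number as a block, grouping by the Treatment field instead of the title, the compared arrays alone and each array left out. Figures were drawn with matplotlib 3.10.9, and promoters came from RefSeq's GRCm38.p6.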

Additional observations from a re-analysis of the deposited data

Results flagged for a closer look

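For 3 genes of the pathway lists the TCDD and oil arrays did not overlap in either source and lay in opposite directions in emigrants and thymocytes, which 2.58% of all probe sets did and none of the 19 member probe sets. Stat4 read 6.13 and 5.83 in TCDD emigrants against 6.46 and 6.70 in oil emigrants, and 5.90 and 5.96 in TCDD thymocytes against 5.56 and 5.08 in oil thymocytes. The TCDD effect in emigrants minus that in thymocytes was -1.21 (unadjusted p 0.00626, adjusted p 1.00 by limma). For Ccnd3 that difference of effects was 1.08 (unadjusted p 0.0062, adjusted p 1.00 by limma), from 0.37 in emigrants and -0.71 in thymocytes. For Bcl2l1, a survival factor of the Bcl2 family, it was 0.45 (unadjusted p 0.122, adjusted p 1.00 by limma), from 0.34 in emigrants and -0.11 in thymocytes. None of the 3 passed the adjusted threshold.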

How the results depend on the processing

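The count of members past limma's adjusted threshold was 0 in every comparison, and it moved only for emigrants against thymocytes averaged over treatments. It was 1 (Il7r on 1448576_at, adjusted p 0.0472) when only the 10196 probe sets above the median mean level were tested, a family of fewer tests, and 1 (the same probe set, adjusted p 0.0467) with the replicate number as a block. The numbers do not mark a shared animal or batch in the labels, and deviations of same-numbered arrays correlated at 0.734 between TCDD and oil thymocytes, 0.511 between TCDD and oil emigrants and -0.15 between TCDD thymocytes and TCDD emigrants. With the numbers crossed between the sources, an alternative chosen after seeing the data, 3 member probe sets passed. Leaving out each array in turn gave 0 in all 6 comparisons. Over all probe sets the averaged source comparison called 16, against 6 with trend and robust eBayes settings, 29 after repeated quantile normalisation, 82 by the Treatment field, 117 among the brighter probe sets, 221 with the replicate block, 251 with the crossed block, and 0 to 70 when 1 array was left out. The causes were not tested. None of the member differences with an unadjusted p under 0.05 changed sign under any alternative. By the Treatment field the oil emigrants are 1 array, assumed to vary like the other groups; that field leaves the thymocyte TCDD comparison as it is. With a block within each source, 3 member probe sets had an unadjusted p under 0.05 for TCDD against oil in emigrants and 3 in thymocytes. For the difference of the TCDD effects 3 did, and without the block the counts were 1, 0 and 0. Over all 20393 probe sets the counts were 1158, 1183 and 1228 with the block and 245, 284 and 258 without it. Under that block Il7r on 1448576_at in emigrants, at -1.16, had an unadjusted p of 0.00014 and an adjusted p of 0.666 by limma. At 2 arrays a group, TCDD differences of the size of the Il7r interval cannot be resolved.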
